A study of Mus musculus with 6 samples.

Results

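The genes of the constitutive proteasome were followed in top lip tissue of Gtf2ird1 knockout mice (KO) and wild type mice (WT). They were taken from the deposited counts by symbol: Psma, Psmb, Psmc or Psmd followed by a digit, with Psme3, Psme4, Psmf1 and Psmg1 to Psmg4, and without the interferon-inducible subunits Psmb8, Psmb9 and Psmb10. In all, 46 of 26814 symbols matched, and 42 of them had at least 1 CPM (counts scaled to a common library size) in at least 3 libraries, among 15009 genes that did. The 4 symbols below this limit were Psma8, a testis alpha subunit with 1 to 4 counts per library, Psmb11, the thymus beta subunit with 2 to 6 counts, and the pseudogenes Psmb6-ps and Psmb7-ps2 with at most 2 and at most 1 count. Among the 42, Psmc3ip matches by name only: it encodes a partner of Psmc3 that is known from meiotic recombination and is not a proteasome subunit.

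The tissue came from 6 adult female mice, 3 of each genotype, with 1 mRNA library per mouse. The KO mice carried the Gtf2ird1 tm1Hrd allele, a knockout of the whole animal rather than of 1 cell type, and both genotypes were of C57BL/6J background. GTF2IRD1 is a transcription factor of the TFII-I family. The libraries held between 20164081 and 29491767 counts on genes. Gtf2ird1 itself was higher, not lower, in the KO libraries, at 78.2, 70.2 and 70.7 CPM in WT1 to WT3 and 166, 162 and 144 CPM in KO1 to KO3 (log2 fold change 1.11, standard error 0.13, edgeR quasi-likelihood adjusted p = 0.0018). Which part of the transcript the reads covered cannot be read from a count per gene, so every direction below is that of the libraries labelled KO against those labelled WT. KO3 was nearer to WT than the other KO libraries. Its log2 CPM over the tested genes correlated with WT at 0.948 to 0.955 (Pearson), and that of KO1 and KO2 at 0.907 to 0.933. KO3 still correlated more with KO1 (0.957) and KO2 (0.969) than with any WT library. Results are therefore also given without KO3.

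The 26S proteasome degrades proteins that carry ubiquitin chains. Its 20S core is a barrel of outer alpha rings and inner beta rings, and the active sites lie on the beta subunits encoded by Psmb5, Psmb6 and Psmb7. The 19S regulatory particle caps the barrel. Its base holds a ring of ATPases (Psmc1 to Psmc6) that unfold substrates and thread them into the core, and its lid holds Psmd14, the enzyme that cuts off the ubiquitin chain. Dedicated chaperones assist assembly and leave the finished particle. When proteasome activity falls, the factor NFE2L1 is known to raise transcription of the subunit genes together through antioxidant response elements.

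Promoter windows of 250 bases before to 50 after the start, from RefSeq on GRCm38.p6, were found for 35 of the 42 genes and searched on both strands for 3 motifs, none of which contains another. The core of the antioxidant response element, TGACNNNGC, was present in 6 of the 35 genes (17.1%), Psmb5, Psmb6, Psmc6, Psmd12, Psmd9 and Psme4, and in 14.0% of the 27025 genes with a window. The CCAAT box, bound by NF-Y, was present in 13 of them (37.1%, against 41.1% of all genes). GGATTA, a core sequence that GTF2IRD1 is known to bind, was present in 3 of them (8.57%, against 8.14% of all genes), Psma1, Psma3 and Psmd11. The shares in the proteasome genes were close to those of all genes for each motif, and a match of letters is a description of the window and not a site shown to be bound.

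The stretches around the antioxidant response element core are shown for 2 catalytic genes and for 2 regulatory particle genes among those with the lowest p-values, all read 5′ to 3′ along the gene with the matching letters in capitals. They are chr14:54617999-54618077 (minus strand) for Psmb5, chr11:70525313-70525356 (plus strand) for Psmb6, chr14:45329574-45329640 (plus strand) for Psmc6 and chr11:107479278-107479324 (plus strand) for Psmd12. In Psmc6 and Psmd12 the core lies on the opposite strand, so its reverse complement is the part in capitals.
Psmb5: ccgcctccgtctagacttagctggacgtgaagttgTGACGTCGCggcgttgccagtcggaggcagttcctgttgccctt
Psmb6: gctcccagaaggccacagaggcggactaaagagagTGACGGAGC
Psmc6: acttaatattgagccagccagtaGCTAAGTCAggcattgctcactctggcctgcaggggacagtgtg
Psmd12: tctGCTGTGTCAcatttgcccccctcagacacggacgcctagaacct

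The 3 stretches that hold GGATTA, shown because the targeted gene encodes a protein known to bind it, are chr7:114276272-114276347 (minus strand) for Psma1, chr12:70974397-70974472 (plus strand) for Psma3 and chr11:80428403-80428478 (plus strand) for Psmd11. The motif is in capitals and begins 196, 191 and 177 bases before the RefSeq start, in that order.
Psma1: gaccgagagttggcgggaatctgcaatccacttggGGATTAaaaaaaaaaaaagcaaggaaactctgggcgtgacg
Psma3: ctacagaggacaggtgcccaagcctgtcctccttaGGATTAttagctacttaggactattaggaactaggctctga
Psmd11: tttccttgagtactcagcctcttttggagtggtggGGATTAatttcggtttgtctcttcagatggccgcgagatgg

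No constitutive proteasome gene passed an adjusted p of 0.05 in edgeR's quasi-likelihood test, in either direction. The background for this count was 4.38% of all tested genes called higher and 2.09% called lower. At an unadjusted p under 0.05, 12 of the 42 genes were higher (background 13.5%) and 0 were lower (background 16.0%). The 12 were Psma1, Psma4, Psmc1, Psmc2, Psmc3, Psmc6, Psmd1, Psmd2, Psmd7, Psmd12, Psmd14 and Psmg1, of which 9 encode parts of the 19S particle. All 3 KO libraries lay above all 3 WT libraries in 15 of the 42 genes (background 13.5%) and below them in 0 (background 18.1%).

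The shift was small but shared by the KO libraries. The median log2 fold change of the 42 genes was 0.17, against -0.02 for all tested genes, with 31 genes above 0 and 11 below. The genes above 0 numbered 24 with upper-quartile normalization, which moved the median of all genes to -0.08 and put Psma3, Psma7, Psmb3, Psmb6, Psmc3ip, Psmd11 and Psmg2 just below 0. Without KO3 the genes above 0 numbered 25, and the median of the 42 genes was 0.14, against -0.03 for all tested genes. Summed over the 42 genes, expression was 3651, 3736 and 3922 CPM in the WT libraries and 4448, 4198 and 4323 CPM in the KO libraries. The genotypes did not overlap in this sum, whose mean was 3770 ± 138 CPM in WT and 4323 ± 125 CPM in KO (SD, n = 3 mice each). The members were chosen with earlier results of these data known, so no p-value is given for the sum or the median.

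**Figure D1:**
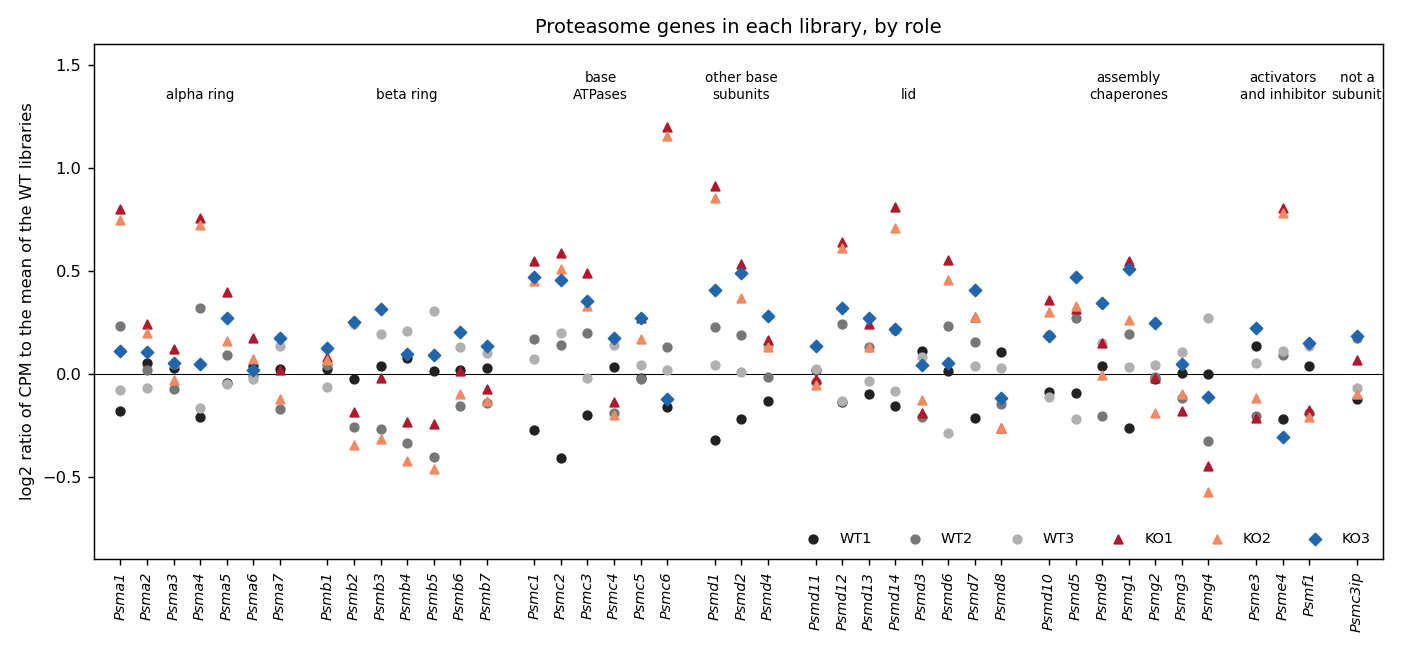
Each point is the log2 ratio of 1 library's CPM to the mean of the 3 WT libraries, for the 42 genes grouped by role, with WT as circles, KO1 and KO2 as triangles and KO3 as diamonds. KO libraries sit above the WT points for most 19S genes such as Psmc1, Psmd1 and Psmd2, while the beta ring genes are mixed and Psmc6 and Psme4 are high in KO1 and KO2 only.

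The ATPases of the 19S base gave some of the highest values. Their median log2 fold change was 0.44, 5 of 6 were above 0, and 4 were higher at an unadjusted p under 0.05 (background 13.5%). Psmc1, an ATPase that gates the core, had 82.4, 112 and 105 CPM in WT1 to WT3 and 146, 136 and 138 CPM in KO1 to KO3. Every KO library was above every WT library, by a log2 fold change of 0.49 (standard error 0.15, edgeR adjusted p = 0.081). Psmc2 had 66.1, 96.8 and 101 CPM in WT and 132, 125 and 121 CPM in KO, without overlap (0.52, standard error 0.18, edgeR adjusted p = 0.10). Psmc3 had 99.0, 130.4 and 112 CPM in WT and 159.9, 143 and 145 CPM in KO, where even WT2, the highest WT library, lay below KO2, the lowest KO library (0.39, standard error 0.14, edgeR adjusted p = 0.12). Psmc3 shares 215 exonic bases with Slc39a13 on the opposite strand, and the sources used here do not state whether counting used strand. WT1 was the lowest library for each of these 3 genes. Without WT1 the log2 fold changes of Psmc1, Psmc2 and Psmc3 were 0.37, 0.34 and 0.30 (edgeR adjusted p = 0.25, 0.26 and 0.35).

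Psmc6, the ATPase with the largest log2 fold change of all 42 genes (0.86, standard error 0.31, edgeR adjusted p = 0.12), behaved differently between KO mice. It had 45.0, 55.0 and 50.9 CPM in WT1 to WT3, 115 and 112 CPM in KO1 and KO2, and 46.2 CPM in KO3. KO3 lay inside the WT range, and without it the log2 fold change was 1.18 with an adjusted p of 0.00072 in the same edgeR test. Leaving out the lowest KO library raises the value by itself, and 16.9% of all tested genes were called higher in that fit. Without KO1 or KO2 the log2 fold change of Psmc6 was 0.72 and 0.74 (edgeR adjusted p = 0.29 and 0.32). Of the remaining ATPases, Psmc5 had a log2 fold change of 0.24 with separate genotypes (134 to 141 CPM in WT, 154 to 165 CPM in KO; edgeR adjusted p = 0.20), and Psmc4 was at -0.05 (edgeR adjusted p = 0.86).

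The large scaffold subunits of the base, Psmd1 and Psmd2, gave the lowest and the fifth lowest adjusted p of the set. Psmd1 had 65.3, 95.6 and 83.8 CPM in WT1 to WT3 and 154, 147 and 108 CPM in KO1 to KO3 (log2 fold change 0.74, standard error 0.19, edgeR adjusted p = 0.062). The genotypes did not overlap, and KO3 was the lowest KO library. Its exons share 252 bases with Htr2b on the opposite strand, a gene with 213 counts in all libraries together. Psmd2, which docks ubiquitin-like proteins, had 201, 267 and 236 CPM in WT and 339, 303 and 329.8 CPM in KO (0.46, standard error 0.15, edgeR adjusted p = 0.090). Here KO3 was as high as the other KO libraries. Psmd4, a ubiquitin receptor, had 104, 113 and 125 CPM in WT and 128, 125 and 138 CPM in KO, with KO2 just below WT3 (0.19, standard error 0.13, edgeR adjusted p = 0.34).

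In the lid the genes divided. The median log2 fold change was 0.27, with 6 of 8 genes above 0 and 3 higher at an unadjusted p under 0.05 (background 13.5%). Psmd14, the deubiquitinating enzyme of the lid, had 47.6, 61.6 and 50.1 CPM in WT1 to WT3 and 93.1, 86.5 and 61.7 CPM in KO1 to KO3 (0.60, standard error 0.19, edgeR adjusted p = 0.088). KO3 was only just above WT2. Psmd12, a scaffold subunit, had 48.9, 63.6 and 49.1 CPM in WT and 84.0, 82.2 and 67.1 CPM in KO (0.53, standard error 0.16, edgeR adjusted p = 0.083), with no overlap. Psmd7, the partner of Psmd14, had 96.4, 125 and 115 CPM in WT and 135.6, 135.6 and 148 CPM in KO, with KO3 highest (0.32, standard error 0.14, edgeR adjusted p = 0.16).

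Psmd3 and Psmd8, scaffold subunits of the same lid, lay on the other side of 0. Psmd8 had 207, 174 and 197 CPM in WT1 to WT3 and 161, 160.5 and 178 CPM in KO1 to KO3 (-0.21, standard error 0.13, edgeR adjusted p = 0.29). KO3 was above WT2, so the genotypes overlapped. Psmd3 had 190.4, 153 and 187 CPM in WT and 155, 162 and 182 CPM in KO (-0.09, standard error 0.14, edgeR adjusted p = 0.69). All 3 of its KO values lay inside the WT range, and its sign turned when the GC trend was removed or KO1 was left out. The other lid genes of the set, Psmd6, Psmd11 and Psmd13, had log2 fold changes of 0.37, 0.02 and 0.21. Psmd13 shares 342 exonic bases with Sirt3 on the opposite strand, and reads of Psmd11 can be shared with A730017L22Rik, a transcript 98.1% identical to it over 1494 bases.

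Of the 19S particle (base and lid), 17 genes were in the set, with a median log2 fold change of 0.37. At an unadjusted p under 0.05 there were 9 of them, and 10 had all KO libraries above all WT libraries. The 20S core (14 genes) had a median of 0.05, with 2 and 3 genes, in the same order. The background was 13.5% of all tested genes for either count. Whether the particles differ was not tested. Their summed expression was 1765, 1963 and 1929 CPM in WT and 2380, 2264 and 2252 CPM in KO for the 19S genes, without overlap. For the 20S genes it was 1497, 1387 and 1578 CPM in WT and 1592, 1463 and 1640 CPM in KO, with overlapping genotypes. Adrm1 and Shfm1 also encode 19S subunits, but their symbols fall outside the rule, so the 19S values leave them out. They had log2 fold changes of -0.06 and 0.15 (edgeR adjusted p = 0.81 and 0.49), with overlapping genotypes.

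Within the core, the alpha ring, which forms the gate, and the beta ring gave different values. All 7 alpha genes had a log2 fold change above 0 in the main fit (median 0.18, range 0.03 to 0.58). Psma7 was at -0.04 without KO3, and Psma3 and Psma7 were below 0 with upper-quartile normalization. With the GC trend removed, Psma2, Psma3 and Psma6 were at -0.06, -0.19 and -0.02, and the median of the alpha ring was 0.09. Whether the rings differ was not tested. Psma1 had 55.4, 73.7 and 59.5 CPM in WT1 to WT3 and 109, 105 and 67.8 CPM in KO1 to KO3 (0.58, standard error 0.21, edgeR adjusted p = 0.11). KO3 lay below WT2. Psma4 had the same order of libraries, with 53.6, 77.3 and 55.3 CPM in WT and 105, 102 and 64.1 CPM in KO (0.54, standard error 0.23, edgeR adjusted p = 0.16). Psma2 and Psma5 had smaller values, 0.18 and 0.28, but their genotypes did not overlap. Psma3, Psma6 and Psma7 were between 0.03 and 0.09.

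The beta ring, which carries the proteolytic sites, had a median log2 fold change of -0.02, with 3 of 7 genes above 0 and none at an unadjusted p under 0.05. Psmb5, the chymotrypsin-like subunit, had 74.3, 55.7 and 91.0 CPM in WT1 to WT3 and 62.1, 53.5 and 78.4 CPM in KO1 to KO3 (-0.19, standard error 0.21, 95% interval -0.68 to 0.30, edgeR adjusted p = 0.58). Psmb6, the caspase-like subunit, had 115, 102 and 124 CPM in WT and 114, 106 and 130.5 CPM in KO (0.04, 95% interval -0.28 to 0.36, edgeR adjusted p = 0.85). Psmb7, the trypsin-like subunit, had 157, 140.0 and 166 CPM in WT and 146, 141 and 169.6 CPM in KO (-0.02, 95% interval -0.33 to 0.29, edgeR adjusted p = 0.94). Psmb7 shares 405 exonic bases with Nek6 on the opposite strand. In all 3 catalytic genes the genotypes overlapped, and the intervals allow a change of moderate size either way. The sign of each of the 3 turned under at least 1 alternative setting, among them removal of the GC trend for Psmb5, upper-quartile normalization for Psmb6 and DESeq2's size factors for Psmb7. Psmb4, a structural beta subunit, had 172, 129.6 and 189 CPM in WT and 139, 122 and 175 CPM in KO (-0.17, standard error 0.19, edgeR adjusted p = 0.57). Psmb1 was the only beta gene with separate genotypes, at 107 to 115 CPM in WT and 117 to 122 CPM in KO (0.09, edgeR adjusted p = 0.62).

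Assembly chaperones were expressed far below the subunits. The 7 genes comprise Psmg1 to Psmg4, which build the alpha ring, and Psmd5, Psmd9 and Psmd10, which bind the base ATPases during assembly. Psmg1 had 11.03, 15.2 and 13.6 CPM in WT1 to WT3 and 19.4, 15.9 and 18.9 CPM in KO1 to KO3 (0.45, standard error 0.17, edgeR adjusted p = 0.14), without overlap. Psmg4 had the lowest log2 fold change of all 42 genes (-0.37, standard error 0.22, edgeR adjusted p = 0.29), with 7.51, 5.99 and 9.08 CPM in WT and 5.53, 5.06 and 6.95 CPM in KO, and KO3 was within the WT range. Psmg3, which works as a pair with Psmg4, had 6.57, 6.04 and 7.06 CPM in WT and 5.78, 6.12 and 6.77 CPM in KO (-0.07, standard error 0.17, edgeR adjusted p = 0.79), and its sign turned when the GC trend was removed or KO1 was left out. Psmd5 had a log2 fold change of 0.37 with separate genotypes (25.7 to 36.1 CPM in WT, 37.1 to 41.4 CPM in KO; edgeR adjusted p = 0.17). Psmd9 shares 1849 exonic bases with Gm26745 on the opposite strand, and Psmc3ip, which is no subunit, shares 385 with Mlx.

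The alternative activators and the inhibitor gave 1 gene above 0. Psme4, which encodes PA200, an activator that opens the core without ubiquitin, had 98.3, 122 and 123 CPM in WT1 to WT3, 199.7 and 196 CPM in KO1 and KO2, and 92.4 CPM in KO3 (0.51, standard error 0.28, edgeR adjusted p = 0.25). KO3 was thus below every WT library, and without it the log2 fold change was 0.80 with an adjusted p of 0.0042 in the same edgeR test. Here too the lowest KO library was left out, and 16.9% of all tested genes were called higher in that fit. Without KO1 or KO2 the log2 fold change of Psme4 was 0.40 and 0.41 (edgeR adjusted p = 0.49 and 0.51). Psme3, the nuclear activator PA28 gamma, had 148, 117 and 140.1 CPM in WT and 116, 124 and 158 CPM in KO (-0.03, standard error 0.16, edgeR adjusted p = 0.93). Psmf1, the inhibitor PI31, had 31.4, 26.8 and 33.6 CPM in WT and 27.1, 26.4 and 33.9 CPM in KO (-0.07, standard error 0.16, edgeR adjusted p = 0.79). The negative signs of Psme3 and Psmf1 turned when KO1 or KO2 was left out.

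**Figure D2:**
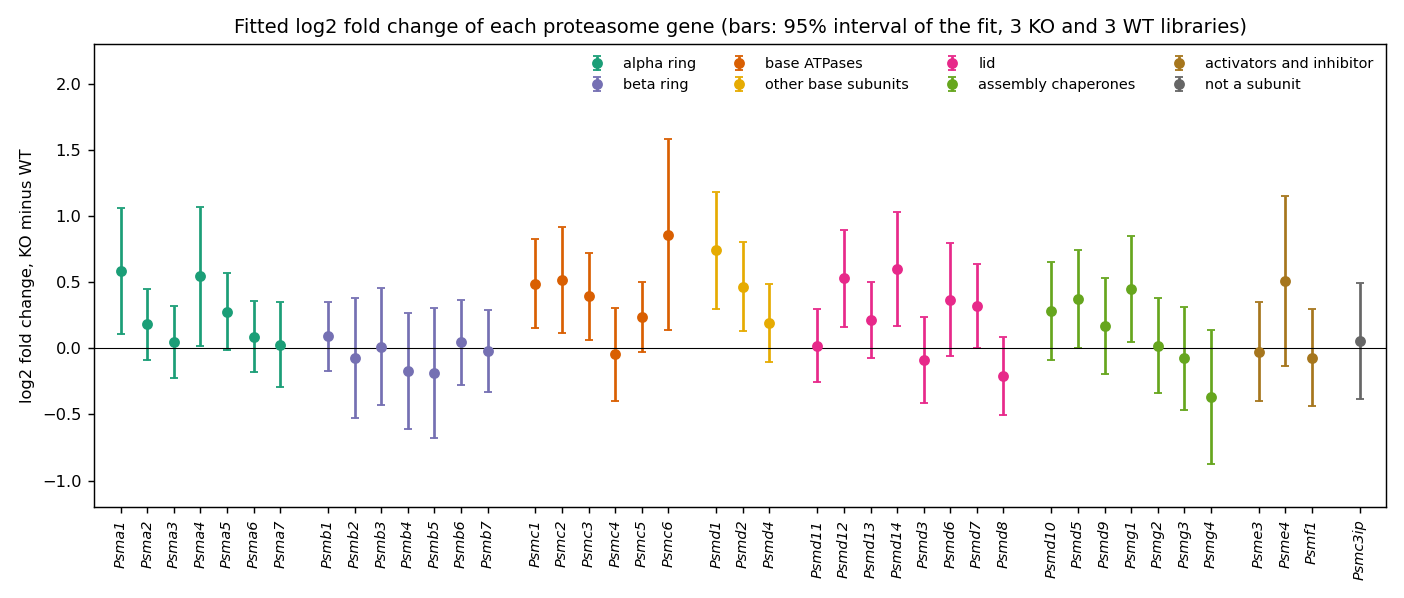
Fitted log2 fold change of each gene, KO minus WT, coloured by role, with bars for the 95% interval of the edgeR fit (3 KO and 3 WT libraries). The intervals of the 12 genes with an unadjusted p under 0.05, such as Psmd1, Psmc1 and Psmd12, lie above 0, and those of all 7 beta ring genes span 0. Psmc6 and Psme4 have wide intervals, which lie above 0 for Psmc6 and span 0 for Psme4.

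The number of genes called depended on the test. The exact test of edgeR, named in the study's methods, called 3 genes higher (Psmc6, Psmd1 and Psmd14), beside a background of 7.76% of genes higher and 7.15% lower. As a share of the 42 genes, these 3 were near the background for higher genes. DESeq2's Wald test called 8 higher (Psma1, Psmc1, Psmc2, Psmc6, Psmd1, Psmd2, Psmd12 and Psmd14), beside 8.93% higher and 5.31% lower. Without KO3, the quasi-likelihood test called 10 higher, which were Psma1, Psma4, Psmc1, Psmc2, Psmc6, Psmd1, Psmd6, Psmd12, Psmd14 and Psme4, beside a background that itself rose to 16.9% higher and 16.2% lower. None of these 3 tests, nor the main test, called a proteasome gene lower.

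In comparisons of 1 library at a time with the WT range, each KO mouse had more proteasome genes above it than below. In KO1, 25 of 42 genes lay above all WT libraries (background 38.0%) and 4 below (background 38.1%). In KO2 the counts were 22 (background 34.7%) and 10 (background 38.7%), and in KO3 they were 29 (background 25.2%) and 1 (background 34.8%), the 1 being Psme4. KO3, the KO library nearest to WT over all genes, thus had the most proteasome genes above the WT range. In the beta ring the KO mice differed from each other, as 5 of its 7 genes lay above all WT libraries in KO3, while in KO2 Psmb2, Psmb3, Psmb4 and Psmb5 lay below them. Of the 17 genes of the 19S particle in the set, 13, 12 and 13 lay above all WT libraries in KO1, KO2 and KO3, and 1, 3 and 0 lay below them. Psmc4 and Psmd11 were among the 3 below in KO2 and were above all WT libraries in KO3.

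The fold changes of the proteasome genes moved with the base composition of their transcripts. Over the 42 genes the Spearman correlation between transcript GC content and the fitted log2 fold change was -0.57, and over 14866 tested genes with a sequence it was -0.40. Both are descriptions across genes that share the same 6 libraries. For the log2 ratio of a single KO library to the WT mean, the correlation over the 42 genes was -0.589 in KO1, -0.597 in KO2 and 0.156 in KO3. Against the mean of all 6 libraries, the proteasome genes of WT1, WT3 and KO3 correlated positively with GC content (0.477, 0.623 and 0.508) and those of WT2, KO1 and KO2 negatively (-0.316, -0.585 and -0.604), so composition varied within each genotype as well.

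The 8 proteasome genes with a GC content under 45% (Psma1, Psma2, Psma3, Psma4, Psmc6, Psmd10, Psmd14 and Psme4) had a median log2 fold change of 0.53, against 0.25 for all genes in that range. The 16 genes from 45% to 50% had a median of 0.18 against 0.07, the 12 from 50% to 55% had 0.10 against -0.10, and the 6 at 55% or above had -0.08 against -0.22. The median of the proteasome genes was above that of all genes in each range. With each library's trend on GC content removed, a fit added after the data had been seen, the median of the 42 genes was 0.20, against 0.01 for all genes. That fit called Psmc1, Psmd1, Psmd2 and Psmd12 higher, at adjusted p-values of 0.046, 0.032, 0.046 and 0.049, beside a background of 6.79% higher and 3.57% lower. The values of Psma1 and Psme4 fell to 0.38 and 0.27 and that of Psmc6 to 0.49. In the same fit the median was 0.49 for the base ATPases, 0.09 for the alpha ring and 0.03 for the beta ring.

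**Figure D3:**
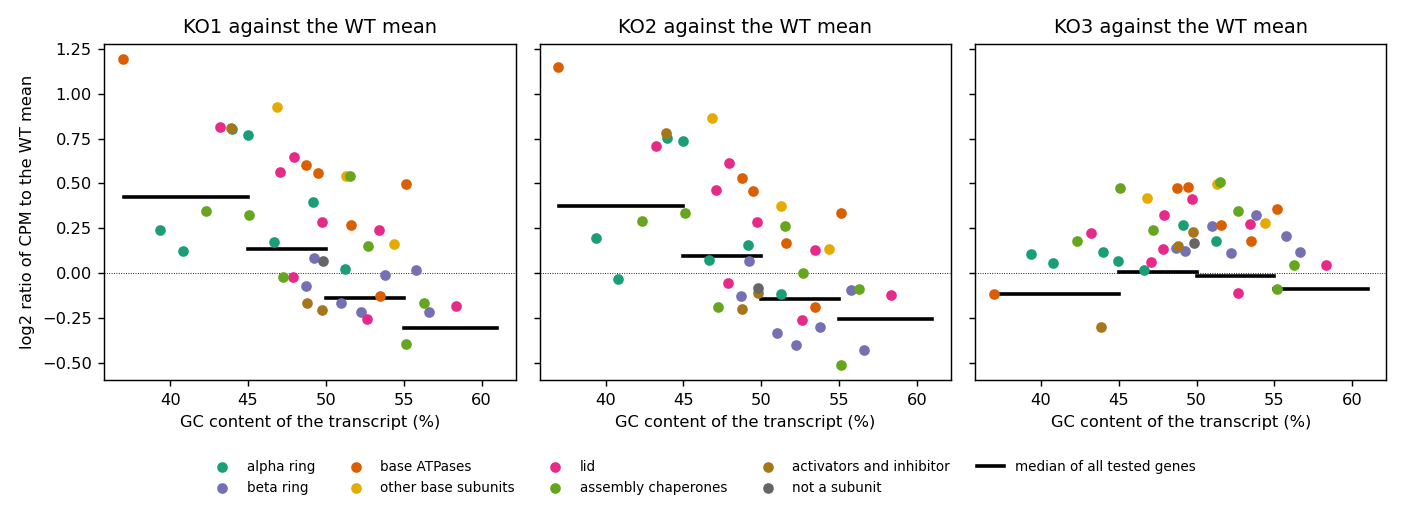
Log2 ratio of each KO library to the WT mean against the GC content of the transcript (%), 1 panel per KO library, with points for the 42 genes coloured by role and bars for the median of all tested genes in 4 ranges of GC content. The points slope downwards in KO1 and KO2, in KO3 they show no such slope, and in each panel the median of the points in a range lies above the bar of that range.

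Levels of the subunits could be compared on a scale per transcript length (TPM, counts per kilobase of transcript scaled to a common total). The length was that of the longest annotated transcript, which need not be the main one in lip, so the levels depend on that choice. Psma3, with 2846 bases, had means of 135 CPM and 98.5 TPM in WT. Psmb6, with 798 bases, had means of 113 CPM and 293 TPM. In WT the beta ring had the highest median, 275 TPM with a range of 119 to 293 TPM, followed by other base subunits at 135, base ATPases at 131, the alpha ring at 111, the lid at 99.7, the activators and inhibitor at 36.7 and the chaperones at 20.4 TPM. Psmb6 was highest at 293 ± 6.4 TPM (SD, n = 3), and Psmb3 at 289 ± 19, Psmb4 at 284 ± 26 and Psmb7 at 275 ± 5.3 TPM followed. Of these 4, neighbouring levels differed by less than the larger of their SDs. The subunits with the lowest WT levels in the 19S particle, Psmc6 at 47.0 ± 9.0, Psmd1 at 54.9 ± 15.1, Psmd12 at 57.9 ± 15.4 and Psmd14 at 72.2 ± 17.9 TPM, were followed by Psmd11 at 77.6 ± 6.2 TPM. In KO these 5 stood at 88.6 ± 40.0, 94.5 ± 20.04, 85.9 ± 13.5, 113 ± 26 and 81.6 ± 4.7 TPM. The first 4 were among the 12 genes with an unadjusted p under 0.05 and Psmd11 was not, and a low WT level also enters the fold change itself. Psma3, Psma4, Psma5, Psmb3, Psmb5, Psmc1, Psmd2 and Psmd11 have near-identical gene copies elsewhere in the genome, so their reads may be split or lost.

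**Figure D4:**
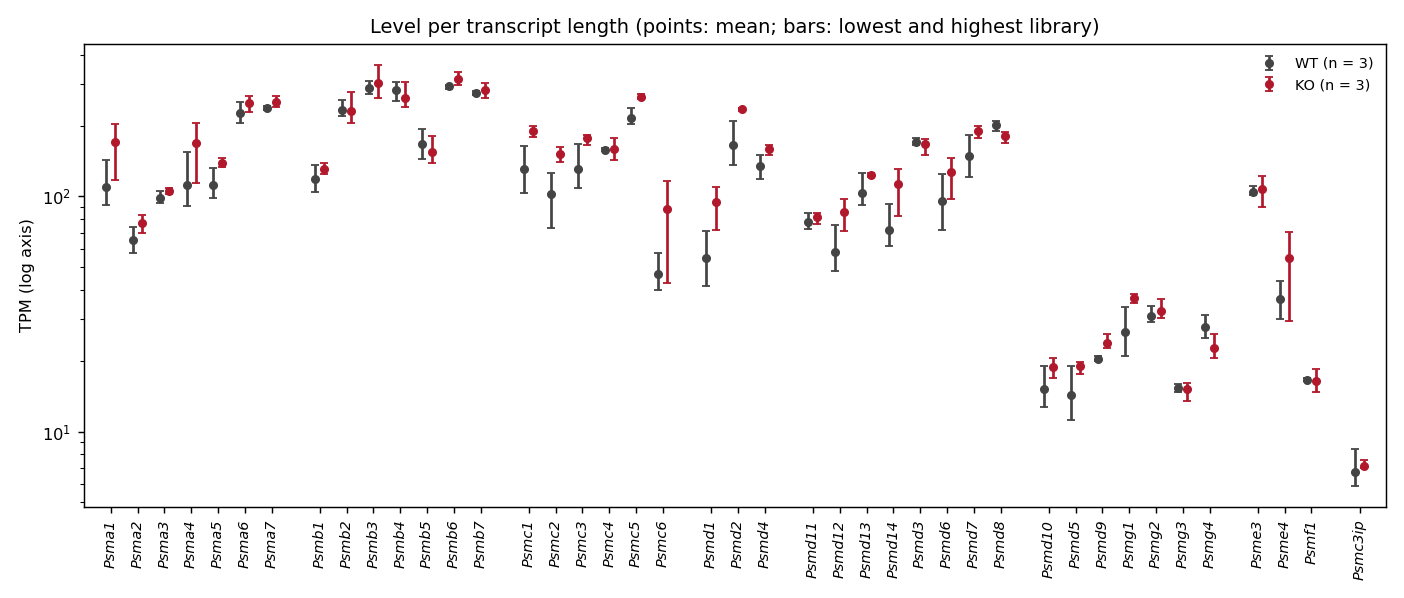
Mean TPM on a log axis for each of the 42 genes by role, WT in grey and KO in red, with bars from the lowest to the highest of 3 libraries. Means of core and 19S subunits lie between 47.0 and 315 TPM, chaperones between 14.3 and 37.1 TPM, and Psmc6 and Psme4 have the widest KO bars.

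Genes that work with the proteasome were read from lists in the same edgeR fit. Of 15 proteasome-associated proteins 0 were called in either direction (median log2 fold change 0.02). At an unadjusted p under 0.05, 3 were higher and 0 lower (background 13.5% and 16.0%). The lowest adjusted p belonged to Usp14, the deubiquitinase bound to Psmd2 (38.5, 45.0 and 41.2 CPM in WT, 69.5, 64.1 and 50.9 CPM in KO; log2 fold change 0.57, adjusted p = 0.068), and to Uchl5, the other deubiquitinase of the base (0.51, adjusted p = 0.091). Ubiquitin genes and E1 enzymes (6 genes), Vcp and its cofactors (10 genes), the COP9 signalosome, a relative of the lid (9 genes), and the NFE2L1 pathway (6 genes) had 0 called in either direction, with medians of 0.14, 0.12, 0.09 and 0.07. At an unadjusted p under 0.05 they had 1, 1, 2 and 0 genes higher and 0 lower (background 13.5% and 16.0%). Nfe2l1 itself had 655, 491 and 525 CPM in WT and 414, 446 and 534 CPM in KO, with overlap (-0.26, edgeR adjusted p = 0.33).

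Nfe2l2, the factor of the oxidative stress response that binds the same element as NFE2L1, rose from 128, 109 and 112 CPM in WT to 222, 238 and 255 CPM in KO (log2 fold change 1.03, standard error 0.13, edgeR adjusted p = 0.0031). Its list had 3 of 12 genes called higher and 0 lower (median 0.15), beside a background of 4.38% higher and 2.09% lower. Besides Nfe2l2 these were Nqo1, a quinone reductase (1.15, edgeR adjusted p = 0.0018), and G6pdx, which supplies NADPH (0.55, edgeR adjusted p = 0.042). Of the targets that were not called, Slc7a11, a cystine transporter, had 24.5 to 25.04 CPM in WT and 93.3, 51.5 and 26.3 CPM in KO1 to KO3 (1.20, edgeR adjusted p = 0.092). Gclm, a subunit of the enzyme that starts glutathione synthesis, had 63.6 to 73.7 CPM in WT and 86.5 to 95.4 CPM in KO (0.36, edgeR adjusted p = 0.11). Both had separate genotypes. Hmox1, a heme oxygenase, had 75.1, 71.7 and 78.0 CPM in WT and 64.1, 66.1 and 52.5 CPM in KO (-0.30, edgeR adjusted p = 0.18). Its genotypes were separate as well, with KO below WT. Over the 12 genes of the list, 5 had all KO libraries above all WT libraries and 2 had them below (background 13.5% and 18.1%). The log2 fold change was above 0 in 8 and below 0 in 4.

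Of the interferon-inducible subunits and the PA28 activator (5 genes, median 0.53), only Psmb9 was called higher and 0 were called lower (background 4.38% and 2.09%). Without KO3 the same test called 2 of the 5 higher, Psmb8 and Psmb9, with a median of 0.25 (background 16.9%). With the GC trend removed it called 4, all but Psme1 (background 6.79%). Psmb9, which replaces Psmb6 in the immunoproteasome, had 7.77, 5.27 and 9.13 CPM in WT and 12.2, 23.4 and 30.6 CPM in KO (1.58, standard error 0.35, edgeR adjusted p = 0.038). Psmb8, the replacement for Psmb5, had 6.82, 5.14 and 7.65 CPM in WT and 7.88, 15.6 and 18.6 CPM in KO (1.10, standard error 0.32, edgeR adjusted p = 0.076). KO1 was the lowest KO library in both and KO3 the highest, the opposite of their order for Psmc6 and Psme4. In a list of 20 interferon-stimulated genes 17 were called higher and 0 lower in the main test (median 2.14, background 4.38% and 2.09%). The summed expression of the 20 genes was 271 to 295 CPM in WT and 535, 1126 and 1108 CPM in KO1 to KO3.

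Lists of other cellular machines were read in the same way, by counts and medians. In the main test 4.38% of all tested genes were called higher and 2.09% lower. Heat shock proteins had 7 of 19 genes called higher and 0 lower (median 0.68), among them Hspa1a (1.68, edgeR adjusted p = 0.00095), Hsph1 (1.58, edgeR adjusted p = 0.0013) and Hspa1b (1.502, edgeR adjusted p = 0.0021). The CCT chaperonin, a folding complex of 8 subunits, had 2 called higher and 0 lower (median 0.80). These were Tcp1 (68.4 to 108 CPM in WT, 137 to 211 CPM in KO) and Cct8 (71.5 to 111 CPM in WT, 134 to 213 CPM in KO), both with an edgeR adjusted p of 0.041. All 8 genes had all KO libraries above all WT libraries (background 13.5%). The eIF3 translation initiation complex had 2 of 13 called higher and 0 lower (median 0.39), Eif3a (144 to 243 CPM in WT, 287 to 429 CPM in KO; edgeR adjusted p = 0.046) and Eif3c (0.79, edgeR adjusted p = 0.048). Mitosis genes had 4 of 15 called higher and 0 lower (median 1.04), with summed expression of 378 to 639 CPM in WT and 821 to 1094 CPM in KO. Without KO3 the same test called 13 heat shock, 8 CCT, 5 eIF3 and 9 mitosis genes higher and 0 lower, and with the GC trend removed it called 10, 7, 3 and 5 higher, in that order. Over all tested genes, 16.9% were called higher without KO3 and 6.79% with the GC trend removed. Differences between the lists were not tested.

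**Figure D5:**
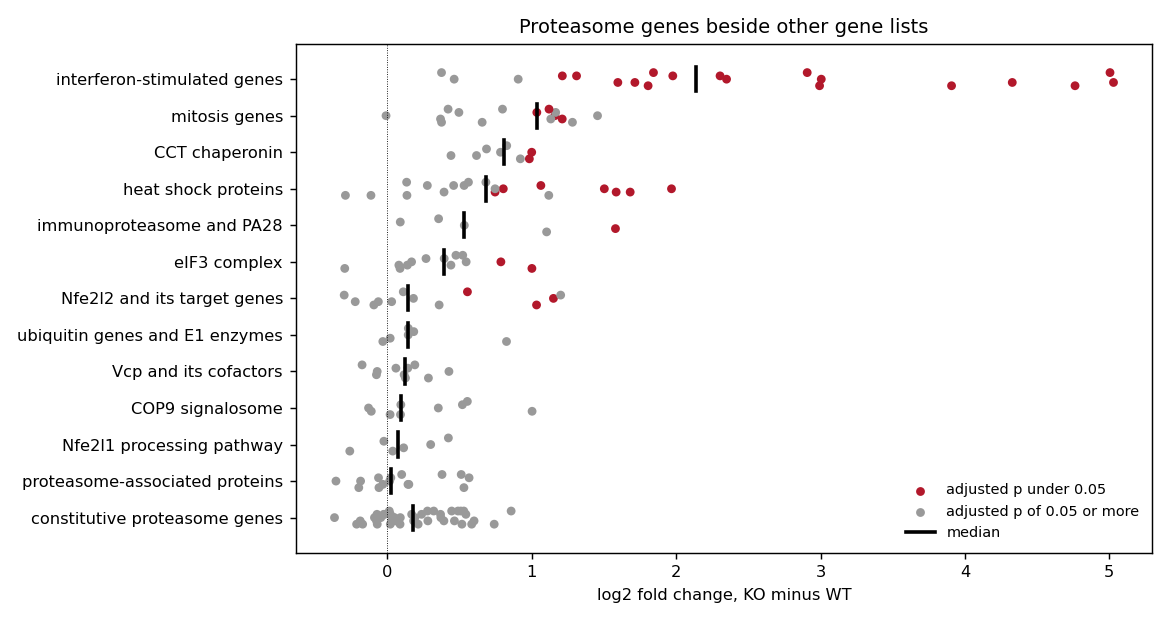
Log2 fold change, KO minus WT, of each gene of the constitutive proteasome (bottom line) and of 12 other lists, in red where the adjusted p was under 0.05, with a bar for the median of each list. The constitutive genes lie between -0.37 and 0.86 with none in red, and the lists of interferon-stimulated, mitosis, CCT and heat shock genes have the highest medians.

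Lip is a mixed tissue, and in bulk RNA a larger share of a cell type and more RNA per cell cannot be told apart. Markers of several cell types moved with genotype. For the counts called in the main test, the background was 4.38% of all tested genes higher and 2.09% lower. The 8 skeletal muscle markers summed to 11404 to 14417 CPM in WT and 5653 to 8827 CPM in KO. Of these markers 1 was called lower, and 7 had all KO libraries below all WT libraries (background 18.1%). The 5 suprabasal keratinocyte markers summed to 16706 to 21095 CPM in WT and 27457 to 41310 CPM in KO, with 1 called higher, and the 5 basal keratinocyte markers overlapped at 9373 to 10504 CPM in WT and 9070 to 10836 CPM in KO. Fibroblast markers summed to 5408 to 7684 CPM in WT and to 2081, 2846 and 6135 CPM in KO1 to KO3, and hair follicle markers to 4517 to 5631 CPM in WT and 2714 to 3853 CPM in KO, with 1 of 5 called lower. Of 4 dendritic cell markers 1 was called higher. The T cell, macrophage, endothelium, adipocyte, Schwann cell, melanocyte, mast cell and erythrocyte lists had 0 genes called in either direction, although Schwann cell markers summed to 237 to 251 CPM in WT and 105 to 206 CPM in KO without overlap. Without KO3, 7 skeletal muscle, 4 hair follicle, 4 fibroblast, 3 Schwann cell, 2 endothelium, 2 adipocyte, 2 mast cell and 1 macrophage marker were called lower, and 3 suprabasal keratinocyte, 1 dendritic cell and 1 mast cell marker higher. In that fit 16.2% of all tested genes were called lower and 16.9% higher. The 4 B cell markers were below the expression limit. The part of these markers in the proteasome values was not tested.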

How the data were processed

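Messenger RNA of top lip tissue from 3 KO and 3 WT adult female mice was sequenced as paired-end libraries. The authors mapped reads to GRCm38 with TopHat2 2.0.8 and Bowtie2 2.1.0, as the submitters' processing notes list them, and the deposited values are raw counts per gene symbol from HTSeq-count, whose counting mode and strand setting are not given in the sources used here. The table held 6 libraries and no other columns of values (0 unused), and each entry named a gene.

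The filter kept 15009 of 26814 genes (1 CPM or more in 3 or more libraries, 99.8% of the counts), and libraries were scaled by TMM factors. Genotypes were compared with edgeR 4.0.16 (R 4.3.3, glmQLFit with legacy=FALSE, glmQLFTest) over all tested genes, with Benjamini-Hochberg adjustment and a threshold of 0.05. CPM values are TMM-scaled. Standard errors and 95% intervals come from this fit. Ratios of single libraries used log2(CPM + 0.5). TPM and GC content used the longest transcript, coding where there is one, from GENCODE on GRCm38, where 26057 symbols found a gene. The trend on gene length used all exonic bases of a gene, each counted once. Near-identical copies were found with minimap2 2.31 (at least 95% identity over at least 200 bases). Figures were drawn with matplotlib 3.10.9 in Python 3.11.15.

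The proteasome genes and the other lists were chosen with earlier results of these data known, so no set test was run and no p-value was adjusted over a list. Values in every library are given for the catalytic subunits Psmb5, Psmb6 and Psmb7, Psmd4 and Psmd14, Psme3, Psme4 and Psmf1, the highest and lowest log2 fold change and the 6 lowest. Those of Psma1, Psma4, Psmc1, Psmc2, Psmc3, Psmd1, Psmd2, Psmd7, Psmd12 and Psmg1 were added after their p-values had been seen. From the other lists at most 6 genes each were named, those with the lowest p-values first, and Nfe2l1, Adrm1 and Shfm1 besides. Each library was left out in turn, and 13 other alternatives were run: limma-voom (limma 3.58.1), DESeq2 1.42.0, edgeR's exact test, the older quasi-likelihood fit, upper-quartile normalization, DESeq2's size factors, scaling by library size, no filter, 10 or more counts in every library, a trend on gene length removed (lowess span 0.3), a replicate block, an adjusted p under 0.1 and, added after the data had been seen, a trend on GC content removed. The fits were first run on simulated counts with no GC trend and with changes larger than that of any proteasome gene. That run does not bear on shifts as small as those described here.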

Additional observations from a re-analysis of the deposited data

How the results depend on the processing

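The count of proteasome genes called higher, 0 of 42 in the main test, was 3 with edgeR's exact test (background 7.76%), 8 with DESeq2 (background 8.93%) and 4 with the GC trend removed (background 6.79%). It was 1 (Psmd1) with the length trend removed, 1 (Psmd1) with no filter and 5 at an adjusted p under 0.1. For these last settings the share over all genes is not given here, so the counts cannot be set against it. With 1 library left out at a time the count lay between 0 and 10, the 10 being without KO3 (background 16.9%). It was 0 with limma-voom, the older quasi-likelihood fit, the other normalizations and at least 10 counts in every library, and the count called lower was 0 throughout. The median log2 fold change of the 42 genes, 0.17, was 0.12 with upper-quartile normalization, 0.22 with no filter, 0.24 with the length trend removed and 0.14 to 0.25 with 1 library left out, and in every fit it exceeded the median of all genes. Genes of the other lists called higher numbered 36 in the main test, 55 with the exact test, 62 with DESeq2 and 58 at an adjusted p under 0.1. With 1 library left out they numbered 13 (without WT1) to 67 (without KO3), with 18 without WT3 and 16 without KO2. Those called lower numbered 0 to 2. Over all tested genes the share called higher was 4.38% in the main test and 16.9% without KO3.

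Of 432 values for 24 named genes under 18 settings, 381 kept sign and side of the threshold, 26 became significant and 25 turned sign. The turns were in 7 genes whose main value lay between -0.19 and 0.04. With the length trend removed they were Psmb5 (0.0188), Psmb7 (0.0316), Psme3 (0.0471) and Psmg3 (0.0029). With the GC trend removed they were Psmb5 (0.0268), Psmd3 (0.161) and Psmg3 (0.132). Psmb6 turned with upper-quartile normalization (-0.0101). Psmb7 and Psme3 turned with DESeq2 (0.0231 and 0.0187), DESeq2's size factors (0.0078 and 0.0024) and no filter (0.0319 and 0.0280). With 1 library left out, the values of genes that turned ranged from -0.0370 to 0.167 for Psmb6, -0.0989 to 0.0917 for Psmb7, -0.154 to 0.0207 for Psmd3, -0.162 to 0.123 for Psme3, -0.188 to 0.0534 for Psmf1 and -0.134 to 0.0363 for Psmg3. The cause of these changes was not tested.

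The sample labels do not state whether the replicate numbers pair the samples, and the main test used no pairing. Deviations from the genotype means correlated at -0.19, 0.29 and 0.31 for numbers 1 to 3, and WT2 correlated most with KO1 (0.41). The deviations of 3 libraries around their own mean depend on each other, so these values cannot decide whether samples were paired. With a replicate block 0 proteasome genes were called and their median was 0.18.

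With 3 mice per genotype, intervals of single genes such as Psmb5 span values from clearly lower to clearly higher, so a missing call does not show equal levels. The lowest count of a tested member in a library was 85 (Psmc3ip, which overlaps Mlx).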

Other observations

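The highest value of a proteasome gene was most often found in KO1 (19 of 42 genes) and KO3 (17 genes), in WT3 for 4 genes, in WT1 for 2 genes, and in WT2 and KO2 for 0 genes. The lowest value was found in WT1 for 15 genes, in KO2 for 10 genes, in WT2 and WT3 for 7 genes each, in KO1 for 2 genes and in KO3 for 1 gene. KO1 was highest for low-GC genes such as Psmc6, Psma1 and Psme4, and also for genes richer in GC such as Psmc3, Psmd2 and Psmg1. KO3 was highest for beta ring genes such as Psmb3 and Psmb6, and also for genes of other roles such as Psmd4, Psmd5 and Psmd7.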
